A study of Mus musculus with 56 samples.

Results

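The change with time in the effect of HTS-3, a severely toxic locked nucleic acid (LNA) gapmer, on the mouse liver transcriptome was measured as the HTS-3 minus vehicle difference at 16 h minus the HTS-3 minus vehicle difference at 8 h, on log2 intensities. The arrays were chosen by treatment and collection time in their titles, which gave 13 of the 56 arrays of the series: 4 livers of mice given HTS-3 and killed at 16 h, 3 given vehicle and killed at 16 h, 3 given HTS-3 and killed at 8 h, and 3 given vehicle and killed at 8 h. All were male CD-1 mice, 6 to 8 weeks old when the study began, and received 1 subcutaneous injection of HTS-3 at 25 mg/kg in 10 mL/kg, or of vehicle, which was phosphate-buffered saline (DPBS). Of 10 mice per group and time, the 3 or 4 whose livers ranked highest for minor hepatic hypertrophy were taken for RNA, so the arrays represent the more affected livers of each group. No HTS-3 liver was taken at 72 h, because those mice died or were killed moribund from 48 h onwards. Other gapmers given at the same dose, the toxic TS-2 and the non-toxic NTS-1, served for the comparison between sequences, and each array held RNA of 1 mouse.

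A gapmer is a short DNA strand flanked by modified nucleotides. It binds a complementary RNA in the nucleus or cytoplasm and recruits RNase H1, which cuts the bound RNA. Partly complementary transcripts can be cut as well, introns included. The liver takes up much of an injected dose. Its hepatocytes make plasma proteins, among them the acute phase proteins and the iron hormone hepcidin, while Kupffer cells are its resident macrophages.

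The livers matched their label. Of 15 hepatocyte markers 12 were measured, their mean log2 intensity lay between 15.18 and 15.46 in HTS-3 livers at 16 h against 15.06 to 15.30 in vehicle livers, and between 14.99 and 15.34 at 8 h against 15.10 to 15.39, and none passed the test of the change with time. A measured gene is one that reached an intensity of 32 on at least 3 of the 37 single-dose arrays, which left 9134 genes. Values under 32 are called dim. The description of HTS-3 8 h mouse 3 gives 16 h, whereas its title and source give 8 h, which was followed here. Among 31 measured genes of the circadian clock and its output, 15 separated the other 8 h livers from the 16 h livers, and mouse 3 lay nearer the 8 h mean for 14 of the 15. Mouse 3 lay within the range of the other 8 h livers for only 8 of the 15. Dbp, a clock output factor, had an intensity of 9026 in that mouse, against 13730 and 8991 in the other HTS-3 8 h mice and 103 to 147 in the HTS-3 16 h mice. Vehicle 16 h mouse 1 stood apart in inflammatory genes, as S100a8, a neutrophil calcium-binding protein, shows with 16170 in that mouse against 164 and 352 in the other vehicle 16 h mice.

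The effect of HTS-3 differed between 16 h and 8 h for 295 of 9134 genes (3.23%) by limma with Benjamini-Hochberg adjustment at a threshold of 0.05. In 252 of them the effect was lower at 16 h, and in 43 it was higher. Fitted with the 4 compared groups alone, without the other single-dose arrays to estimate the spread, 9 genes passed, all lower at 16 h. The count was 335 without HTS-3 8 h mouse 3 and 108 with that mouse counted as a 16 h mouse, and it was 514 without HTS-3 16 h mouse 3. Quantile normalisation gave 105 higher and 269 lower. Against vehicle, HTS-3 changed 1540 genes at 16 h (16.9%), of which 735 rose and 805 fell. At 8 h it changed 81 genes (0.887%), of which 29 rose and 52 fell. HTS-3 and vehicle livers did not overlap, in either direction, for 2147 of the 9134 genes at 16 h and for 1143 at 8 h. A lack of overlap in a single gene is thus common.

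**Figure D1:**
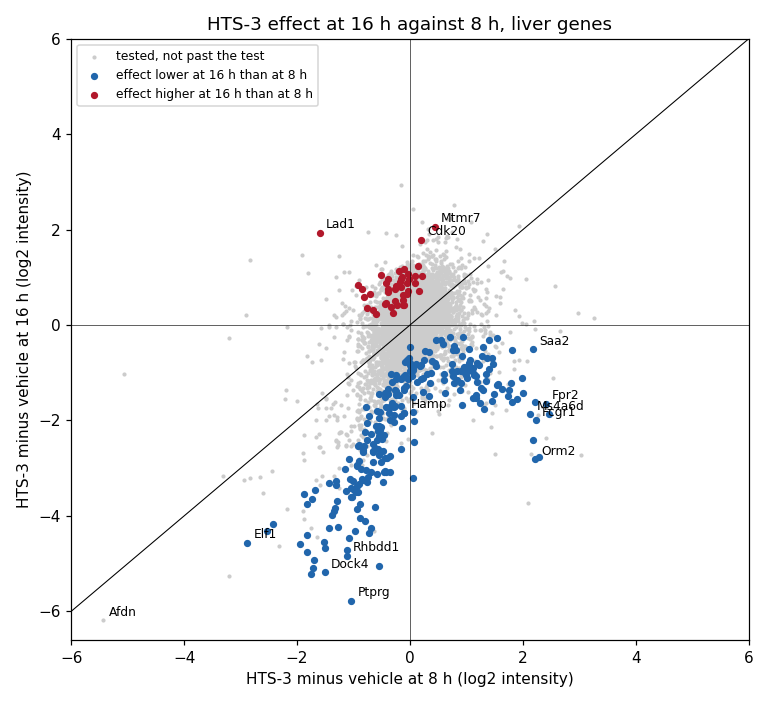
HTS-3 minus vehicle at 16 h (vertical axis) against the same difference at 8 h (horizontal axis), both in log2 intensity, for the 9134 measured genes. Points on the diagonal have equal effects at both times. The 252 genes with a lower effect at 16 h run in an arm to the lower left, with Ptprg and Dock4, and in an arm to the lower right, with Fcgr1 and Orm2.

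The 252 genes with a lower effect at 16 h were of 2 kinds. In 143 of them the 8 h difference from vehicle was below 0, with a median of -0.65 (log2), and the 16 h median was -2.74. All 143 fell at 16 h by the test, and 13 of them also at 8 h. In the other 109 the 8 h difference was above 0, with a median of 0.99, and the 16 h median was -1.03. Of these 109, 16 rose at 8 h and 76 fell at 16 h. These counts come from the same contrasts that chose the genes and describe them only.

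The falls described first are of genes with an 8 h difference below 0. Ptprg, a receptor tyrosine phosphatase, had intensities of 5.64, 6.42, 19.6 and 5.64 in HTS-3 livers at 16 h, against 459.9, 624 and 291 in vehicle livers. At 8 h it had 156, 124 and 105 in HTS-3 livers, against 224, 315 and 248 in vehicle livers. The groups did not overlap at either time, and all 4 HTS-3 livers at 16 h were dim. The difference between the 16 h and 8 h effects was -4.74 ± 0.67 (log2, SE; adjusted p = 9.57e-05, limma), and -2.73 (adjusted p = 0.00813) when dim values are set to 32. With that floor Ptprg was at least 13.7-fold lower than vehicle at 16 h. In bulk tissue, fewer cells of a type and less RNA per cell cannot be told apart.

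Dock4, an activator of the small GTPase Rac, had 4.56, 6.82, 4.56 and 4.56 in HTS-3 livers at 16 h, against 155, 223 and 178 in vehicle livers. In 8 h livers the values were 42.4, 41.2 and 164 after HTS-3, against 176, 176 and 211 after vehicle. HTS-3 8 h mouse 3 lay close to the vehicle mice, far above the other HTS-3 8 h mice, while all HTS-3 livers at 16 h were at or near the lowest value of the arrays. The difference between the effects was -3.67 ± 0.41 (adjusted p = 3.8e-06, limma), and Dock4 had already fallen at 8 h (-1.51 ± 0.30, adjusted p = 0.00786). With dim values set to 32 it no longer passed for the change with time, and at 16 h it was at least 5.72-fold lower than vehicle. Rhbdd1, an intramembrane protease, had 24.1, 10.5, 43.6 and 10.5 in HTS-3 livers at 16 h, against 416, 682 and 518 in vehicle livers. Its 8 h intensities were 213, 221 and 183 after HTS-3, against 355, 376 and 662 after vehicle. The change with time was -3.72 ± 0.48 (adjusted p = 2.27e-05), with no overlap between groups at either time.

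Atg10, Atg7 and Nbr1 take part in autophagy, which delivers cell contents to the lysosome. Atg10, an E2-like enzyme of autophagosome formation, had 21.4, 33.2, 58.0 and 10.3 in HTS-3 livers at 16 h, against 521, 444 and 498 in vehicle livers. At 8 h it had 239, 355 and 371 in HTS-3 livers, against 664, 595 and 335 in vehicle livers, and these overlapped. Its change with time was -3.56 ± 0.48 (adjusted p = 5.06e-05). Atg7, the E1-like enzyme of the same pathway, changed by -2.38 ± 0.49 (adjusted p = 0.00522) on its brighter probe set. A second probe set of Atg7 gave 0.16, so the sets of that gene disagree. Nbr1, a cargo receptor, changed by -2.94 ± 0.79 (adjusted p = 0.031) but did not pass when mouse 1 or 2 of either 8 h group, vehicle 16 h mouse 2 or 3, or HTS-3 16 h mouse 2 or 4 was left out. A second probe set of Nbr1 gave -0.82, and Nbr1 did not pass with the mean of probe sets. Of 24 measured genes of the autophagy and lysosome list, 2 fell (8.3%, beside 2.76% of all genes tested), Atg7 and Nbr1, with a list median of -0.01 beside 0.05 for all genes tested. Atg10 is not on that list and was named for the size of its fall.

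Of 23 measured genes of the RNA decay list, which holds RNase H, exosome and decapping genes, 3 fell, beside 2.76% of all genes tested, with a median of -0.14. The count was 1 without vehicle 16 h mouse 1, 2 or 3 or HTS-3 8 h mouse 1, and 0 without HTS-3 8 h mouse 2. Exosc7, a subunit of the RNA exosome, had 202, 212, 676 and 48.7 in HTS-3 livers at 16 h, against 3053, 2265 and 2202 in vehicle livers. For 8 h, HTS-3 livers gave 980.5, 1250 and 1026, against 2779, 3291 and 1991 in vehicle livers. The HTS-3 livers lay below all vehicle livers at both times, and HTS-3 16 h mouse 3 was the highest of its group, as it was for Ptprg, Rhbdd1, Atg10 and Ap2a2. The change with time of Exosc7 was -2.39 ± 0.62 (adjusted p = 0.0239), that of Dcp2, the decapping enzyme, was -2.33 ± 0.63 (adjusted p = 0.0341), and that of Parn, a poly(A)-specific ribonuclease, was -0.95 ± 0.27 (adjusted p = 0.0463). Exosc7 did not pass without vehicle 8 h mouse 3, vehicle 16 h mouse 1 or HTS-3 8 h mouse 2. Dcp2 still passed when vehicle 16 h mouse 1, HTS-3 8 h mouse 3 or HTS-3 16 h mouse 3 was left out, failed when any of the other 10 mice was, and failed with dim values set to 32. Parn still passed only when HTS-3 8 h mouse 3 or HTS-3 16 h mouse 3 was left out.

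Further falls of this kind were Adgrv1, an adhesion G protein-coupled receptor (-4.50 ± 0.81, adjusted p = 0.00146), Diaph2, a formin that nucleates actin filaments (-3.63 ± 0.67, adjusted p = 0.00188), and Ap2a2, a clathrin adaptor subunit (-3.61 ± 0.59, adjusted p = 0.000582). Tek, the angiopoietin receptor of endothelial cells, had 23.3, 81.9, 99.7 and 18.8 in HTS-3 livers at 16 h, against 522, 808 and 595 in vehicle livers. It was the 1 gene of 15 measured sinusoidal endothelium markers that fell for the change with time (-2.92 ± 0.61, adjusted p = 0.00557). That is 6.7% of the list, beside 2.76% of all genes tested, and the list median was -0.50. Without HTS-3 8 h mouse 3, 2 of its genes passed and the median was -1.06, and the median was -0.33 without HTS-3 8 h mouse 2. Gys2, the liver glycogen synthase, had 434, 245, 457 and 532 in HTS-3 livers at 16 h, against 1517, 1952 and 1758 in vehicle livers. The 8 h intensities were 2638, 2088 and 1886 after HTS-3, against 2283, 3095 and 4619 after vehicle. Of 20 measured genes in the gluconeogenesis and glucose control list 1 fell (5.0%, beside 2.76% of all genes tested). Gys2 was that gene (-1.56 ± 0.36, adjusted p = 0.0115), apart from vehicle at 16 h and overlapping it at 8 h. It did not pass without vehicle 8 h mouse 1.

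Where HTS-3 livers were dim at both times, a change with time could not be measured. Afdn, which encodes the junction protein afadin, had 7.98, 7.98, 7.98 and 8.20 in HTS-3 livers at 16 h, against 460.2, 771 and 573 in vehicle livers. The 8 h intensities were 10.2 to 20.2 after HTS-3, against 485, 643 and 805 after vehicle. All 7 HTS-3 livers were dim, and the change with time was -0.76 ± 0.42 (adjusted p = 0.408), or 0.10 with dim values set to 32. Elf1, a transcription factor of the ETS family, was between these cases, with 11.0, 17.4, 32.3 and 22.2 in HTS-3 livers at 16 h against 584, 463 and 349 in vehicle livers, and 85.6, 52.8 and 23.8 in HTS-3 livers at 8 h against 311, 349.8 and 394 in vehicle livers. It had fallen at 8 h (-2.88 ± 0.31, adjusted p = 7.95e-07) and fell further by 16 h (-1.68 ± 0.42, adjusted p = 0.0181, and -1.09 with dim values set to 32, adjusted p = 0.0341), although without HTS-3 8 h mouse 1, vehicle 8 h mouse 1 or vehicle 16 h mouse 1 it did not pass.

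**Figure D2:**
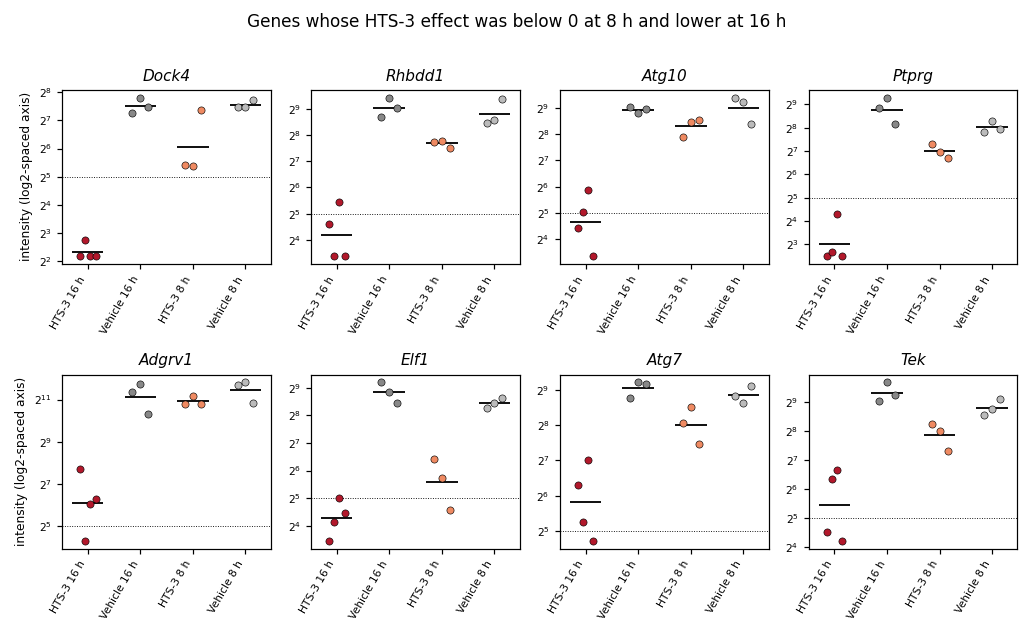
Intensity on a log2-spaced axis in each liver (points) for 8 genes whose HTS-3 effect was lower at 16 h than at 8 h, in HTS-3 livers at 16 h, vehicle livers at 16 h, HTS-3 livers at 8 h and vehicle livers at 8 h. Bars are geometric means and the dotted line marks 32, below which values are called dim. Dock4 and Ptprg are dim in all 4 HTS-3 livers at 16 h.

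The falls with an 8 h difference below 0 were in longer genes than the rest. Lengths were taken from the RefSeq genes of assembly GRCm38.p6, which gave a length for 9122 of the 9134 genes. The 143 genes with an 8 h difference below 0, of which 13 fell at 8 h by the test, had a median length of 122.6 kb. Of them 62.0% were 100 kb or longer. For all genes tested the median was 22.8 kb and the share 11.0%. The 109 genes with an 8 h difference above 0 had a median of 17.8 kb and the 43 rises a median of 17.4 kb. Over all genes tested, 1.65% of the 2309 genes under 10 kb had a lower effect at 16 h, as did 1.65% of the 3161 genes of 10 to 30 kb, 2.34% of the 2650 genes of 30 to 100 kb, 8.49% of the 860 genes of 100 to 300 kb and 18.3% of the 142 genes of 300 kb or more. The share thus grew above 100 kb, while the share with a higher effect was at most 0.728% in any bin. Without HTS-3 8 h mouse 3 the effect was lower for 20.4% of genes of 300 kb or more and 1.95% of genes under 10 kb. The shares were 4.23% and 1.21% with that mouse counted as a 16 h mouse, and 2.26% and 0.0442% with the compared groups alone.

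Medians within single livers were set beside these shares. For the 142 genes of 300 kb or more, the median log2 difference from the vehicle mean of the same time was -1.07, -1.16, -0.92 and -1.19 in HTS-3 livers at 16 h, against -0.22, 0.13 and 0.06 in vehicle livers. At 8 h it was -0.36, -0.30 and -0.82 in HTS-3 livers, against -0.18, -0.01 and 0.14 in vehicle livers. All HTS-3 livers lay below all vehicle livers at both times, and HTS-3 8 h mouse 3 was lower than the other HTS-3 8 h mice and close to the 16 h livers. For genes of 100 to 300 kb the medians were -0.34, -0.51, -0.24 and -0.30 in HTS-3 livers at 16 h, against -0.15, 0.10 and 0.04 in vehicle livers. They were 0.04, -0.07 and -0.54 in HTS-3 livers at 8 h, against -0.14, -0.01 and 0.17 in vehicle livers, so that these overlapped at 8 h. For genes under 10 kb the medians lay between -0.0003 and 0.17 in HTS-3 livers at 16 h and between 0.01 and 0.09 at 8 h. Longer genes also had lower intensities, with a median vehicle level at 16 h of 248 for genes of 300 kb or more and 892 for genes under 10 kb. The part of intensity in the length pattern was not tested.

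**Figure D3:**
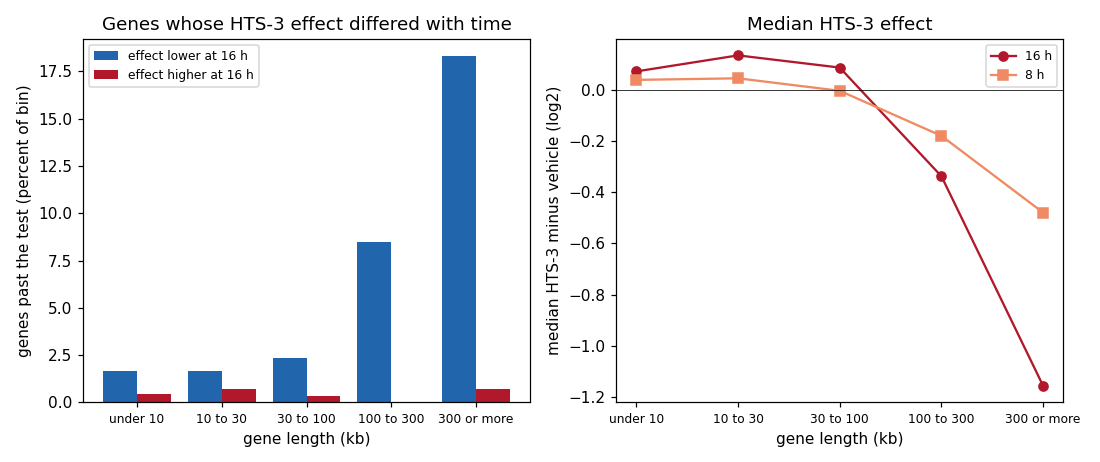
Left, percent of genes in each length bin (kb) whose HTS-3 effect was lower or higher at 16 h than at 8 h. Right, median HTS-3 minus vehicle difference (log2) of each bin at 16 h and at 8 h. The share lower at 16 h is 18.3% in the bin of 300 kb or more and 1.65% under 10 kb, and the median effect at 16 h falls below that at 8 h from 100 kb upwards.

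Promoters of hepcidin and of 4 genes from both kinds of fall are shown as examples that hold a binding motif. They are not typical, since most promoters of either kind of fall hold neither motif. Each runs from 250 bases before to 50 after the RefSeq start of assembly GRCm38.p6. Capitals mark the motif TTCNNNGAA, bound by STAT factors, or GAGGAAGT, bound by the macrophage factor PU.1, searched on both strands. Each of these promoters holds 1 of the motifs and none of the other, so the motifs do not overlap here.
Hamp, chr7:30943980-30944279, minus strand: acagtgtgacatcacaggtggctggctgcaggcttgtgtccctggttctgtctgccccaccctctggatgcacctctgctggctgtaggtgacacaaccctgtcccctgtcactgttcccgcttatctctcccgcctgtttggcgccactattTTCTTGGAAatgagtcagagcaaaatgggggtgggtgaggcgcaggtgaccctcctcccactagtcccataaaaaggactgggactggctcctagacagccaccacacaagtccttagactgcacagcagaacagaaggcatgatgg
Fcgr1, chr3:96293920-96294219, minus strand: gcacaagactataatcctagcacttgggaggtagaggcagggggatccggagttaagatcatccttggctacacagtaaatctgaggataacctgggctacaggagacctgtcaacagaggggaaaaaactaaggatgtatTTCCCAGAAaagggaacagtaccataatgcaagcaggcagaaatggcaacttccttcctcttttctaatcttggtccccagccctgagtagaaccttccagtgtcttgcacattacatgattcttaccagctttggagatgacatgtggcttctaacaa
Fcgr4, chr1:171018676-171018975, plus strand: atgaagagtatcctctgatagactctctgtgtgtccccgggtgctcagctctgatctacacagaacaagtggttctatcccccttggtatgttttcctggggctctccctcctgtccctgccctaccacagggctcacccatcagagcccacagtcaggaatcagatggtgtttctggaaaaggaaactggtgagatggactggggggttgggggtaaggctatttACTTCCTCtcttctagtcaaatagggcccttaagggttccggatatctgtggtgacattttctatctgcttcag
C1qc, chr4:136892865-136893164, minus strand: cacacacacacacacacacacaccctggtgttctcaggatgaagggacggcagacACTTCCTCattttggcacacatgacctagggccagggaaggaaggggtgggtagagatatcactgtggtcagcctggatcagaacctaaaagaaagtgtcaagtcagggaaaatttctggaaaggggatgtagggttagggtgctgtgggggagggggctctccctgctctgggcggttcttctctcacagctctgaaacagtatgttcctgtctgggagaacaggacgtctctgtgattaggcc
Dock4, chr12:40445803-40446102, plus strand: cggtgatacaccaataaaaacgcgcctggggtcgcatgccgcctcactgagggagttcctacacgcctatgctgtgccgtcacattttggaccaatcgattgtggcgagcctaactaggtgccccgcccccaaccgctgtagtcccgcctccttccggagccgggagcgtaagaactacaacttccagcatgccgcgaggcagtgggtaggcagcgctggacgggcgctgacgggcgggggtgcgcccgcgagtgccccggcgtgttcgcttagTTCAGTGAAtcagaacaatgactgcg
TTCNNNGAA was present in 8.3% and GAGGAAGT in 3.2% of 32851 RefSeq promoters of this length. Among the 97 promoters of the 109 genes with an 8 h difference above 0, 7 held TTCNNNGAA (7.22%) and 7 held GAGGAAGT (7.22%). Among the 144 promoters of the 143 falls with an 8 h difference below 0, 8 held TTCNNNGAA (5.56%) and 4 held GAGGAAGT (2.78%). A match is a description of the sequence only.

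Hepcidin fell at 16 h and not at 8 h by the test. Hamp encodes hepcidin, the liver hormone that lowers plasma iron by degrading ferroportin, and its RNA had 12230, 18920, 16450 and 17890 in HTS-3 livers at 16 h, against 57940, 53600 and 62110 in vehicle livers. At the earlier time HTS-3 livers had 59610, 60210 and 57420, against 66840, 64570 and 58640 in vehicle livers. The HTS-3 livers at 16 h were well apart from every other liver, while the 8 h groups overlapped. The change with time was -1.74 ± 0.16 (adjusted p = 1.05e-07, limma), made of a 3.58-fold fall at 16 h (adjusted p = 5.42e-13) and no call at 8 h (-0.10 ± 0.12, adjusted p = 0.886). Its call held when any 1 of the 13 mice was left out, and it was lost when HTS-3 8 h mouse 3 was counted as a 16 h mouse. Hamp has a near-identical copy in the mouse, Hamp2, which is measured by a probe set of its own, and whether the sets tell them apart was not tested. Of 10 measured iron control genes, Hamp was the 1 that passed (10.0%, beside 2.76% of all genes tested that fell). The list median was -0.02, or -0.27 without HTS-3 8 h mouse 3.

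Macrophage genes were among the second kind of fall, with list medians above vehicle at 8 h and below it at 16 h. Of 16 measured genes in the macrophage and monocyte list 10 fell for the change with time and none rose, beside 2.76% of all genes that fell, and the list median was -2.09 (1.12 at 8 h and -0.95 at 16 h) beside 0.05 for all genes. Of 11 measured Kupffer cell genes 9 fell, with a median of -1.84. By the tests against vehicle, 2 macrophage and 0 Kupffer genes rose at 8 h, and 6 and 7 fell at 16 h. Of all genes tested 0.317% rose at 8 h and 8.81% fell at 16 h. The mean log2 intensity of the macrophage list was 8.09 to 8.47 in HTS-3 livers at 16 h, against 8.76 to 10.04 in vehicle livers, and 9.14 to 10.09 in HTS-3 livers at 8 h, against 8.24 to 8.49 in vehicle livers. That of the Kupffer list was 9.27 to 9.90, against 10.12 to 11.12, at 16 h and 10.31 to 11.31, against 9.78 to 9.90, at 8 h. Neither list overlapped between HTS-3 and vehicle at either time. In both lists vehicle livers at 16 h lay above vehicle livers at 8 h, while HTS-3 livers at 16 h overlapped vehicle livers at 8 h. Of 22 and 12 listed genes, 6 macrophage genes, among them Itgam and Ccr2, and 1 Kupffer gene, Marco, were not measured.

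Fcgr1, the high-affinity IgG receptor of macrophages, had 18.0, 15.6, 15.6 and 15.7 in HTS-3 livers at 16 h, against 170.1, 33.2 and 47.3 in vehicle livers. At 8 h it had 164, 55.0 and 114 in HTS-3 livers, against 11.3, 33.0 and 26.9 in vehicle livers. The HTS-3 livers lay below vehicle at 16 h and above it at 8 h with no overlap, and the 16 h HTS-3 livers were all dim. Its change with time was -4.22 ± 0.67 (adjusted p = 0.000409), with a rise at 8 h (2.23 ± 0.49, adjusted p = 0.0197) and a fall at 16 h (-1.99 ± 0.46, adjusted p = 0.00255). With dim values set to 32 the change was -2.65 (adjusted p = 0.0107), and Fcgr1 was at least 2.01-fold lower at 16 h and at least 3.12-fold higher at 8 h. Ms4a6d, a membrane protein of myeloid cells, had 12.3, 48.0, 36.8 and 22.4 in HTS-3 livers at 16 h, against 245, 43.8 and 83.6 in vehicle livers. For 8 h, HTS-3 livers gave 277, 128 and 143, against 31.6, 44.0 and 43.1 in vehicle livers. It overlapped vehicle at 16 h and was apart from it at 8 h, and its change was -4.00 ± 0.63 (adjusted p = 0.000401). Its relative Ms4a6b changed by -4.33 ± 0.68 (adjusted p = 0.000401).

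C1qa, C1qb and C1qc, the chains of complement C1q that Kupffer cells make, changed together. C1qb had 1965, 4174, 3873 and 2365 in HTS-3 livers at 16 h, against 10980, 4428 and 4865 in vehicle livers, and at 8 h 9575, 4852 and 6408 in HTS-3 livers, against 3019, 3041 and 2854 in vehicle livers. The changes with time were -1.74 ± 0.31 for C1qa (adjusted p = 0.00146), -2.24 ± 0.41 for C1qb (adjusted p = 0.00188) and -1.84 ± 0.39 for C1qc (adjusted p = 0.00595). Aif1, a calcium-binding macrophage protein, changed by -2.63 ± 0.50 (adjusted p = 0.00246), and Clec1b, a lectin receptor of Kupffer cells, by -2.18 ± 0.41 (adjusted p = 0.00234). Vehicle 16 h mouse 1 was the highest of its group for each of Fcgr1, Ms4a6d, C1qb and Aif1. Without that mouse 6 macrophage and 6 Kupffer genes passed, with medians of -1.60 and -1.46. The medians of the 16 h effect alone were then -0.50 and -0.46, against -0.95 and -0.88 with that mouse. Without HTS-3 8 h mouse 3, 13 and 9 passed, with medians of -2.06 and -2.04, and without HTS-3 8 h mouse 1, the highest of its group, 8 and 6 passed. With the compared groups alone none of the 16 macrophage and none of the 11 Kupffer genes passed, nor did any gene of the neutrophil, lymphocyte, endothelium, interferon, acute phase, RNA decay or autophagy lists.

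Fpr2, a chemoattractant receptor of neutrophils and monocytes, had 121, 174, 90.1 and 64.2 in HTS-3 livers at 16 h, against 753, 196 and 244 in vehicle livers. The 8 h intensities were 1388, 378 and 270 after HTS-3, against 171, 114 and 49.1 after vehicle. HTS-3 livers were below vehicle at 16 h and above it at 8 h without overlap (change -4.05 ± 0.76, adjusted p = 0.0023). Of 17 listed neutrophil genes 4 were measured and 2 of these fell, Fpr2 and S100a8, beside 2.76% of all genes tested. S100a8 (-5.06 ± 1.41, adjusted p = 0.0412) did not pass without vehicle 16 h mouse 1 or without any of 6 other mice, namely mice 2 and 3 of vehicle 8 h, 1 and 2 of HTS-3 8 h, and 2 and 4 of HTS-3 16 h, and the median of the 4 was -4.13 with that mouse and -2.52 without it. All 4 passed without vehicle 16 h mouse 2, and 1 passed without HTS-3 8 h mouse 1 or 2. Of 6 measured lymphocyte genes, from 22 listed, 1 fell (16.7%, beside the same 2.76%). It was Ptprc, the phosphatase CD45 of all white blood cells (-2.06 ± 0.48, adjusted p = 0.0115), and it did not pass without vehicle 16 h mouse 1.

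Of 27 measured interferon-stimulated genes 3 fell for the change with time (11.1%, beside 2.76% of all genes tested), and 22 had a negative value. The median was -1.33, from 1.24 at 8 h and -0.10 at 16 h. By the test 0 of the 27 rose at 8 h. The list mean at 8 h was 9.50, 7.89 and 7.41 in HTS-3 livers, against 6.85 to 7.54 in vehicle livers, and these overlapped. Without HTS-3 8 h mouse 1 the 8 h median was 0.49. Trim30a changed by -2.51 ± 0.47 (adjusted p = 0.00188), Oas1a, which makes the activator of RNase L in mouse, by -1.98 ± 0.38 (adjusted p = 0.00264), and Bst2, the tethering protein tetherin, by -0.78 ± 0.20 (adjusted p = 0.0208). Bst2 did not pass without vehicle 8 h mouse 1 or 3, vehicle 16 h mouse 1, HTS-3 8 h mouse 1 or HTS-3 16 h mouse 4. Without HTS-3 8 h mouse 3, 9 passed, and without HTS-3 8 h mouse 1 2 passed, with medians of -1.62 and -0.64, while 6 passed without vehicle 16 h mouse 2 and 5 without HTS-3 8 h mouse 2. Ifi27l2a, an interferon-induced mitochondrial protein outside that list, had a geometric mean of 247 in HTS-3 livers at 16 h, against 1315 in vehicle livers, and of 2209 in HTS-3 livers at 8 h, against 485 in vehicle livers (change -4.60 ± 0.91, adjusted p = 0.00332). Cxcl9, a chemokine that draws T cells, had 481, 457, 340.4 and 415 in HTS-3 livers at 16 h, against 1537, 668 and 1396 in vehicle livers, and 16430, 1091 and 1465 in HTS-3 livers at 8 h, against 681, 931 and 648 in vehicle livers. It was the 1 of 12 measured cytokine and chemokine genes that passed (-3.42 ± 0.77, adjusted p = 0.00963), and HTS-3 8 h mouse 1 was far above the others of its group.

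Acute phase genes, which hepatocytes switch on under inflammatory cytokines, fell for the change with time in 4 of 24 measured members (16.7%, beside 2.76% of all genes tested), and the list median was -0.17. The median was -0.31 without HTS-3 8 h mouse 3 and -0.09 without HTS-3 8 h mouse 1, with 4 members passing in both cases. Saa2, serum amyloid A, had 3747, 3596, 3445 and 4106 in HTS-3 livers at 16 h, against 14520, 2229 and 4583 in vehicle livers. At the earlier time HTS-3 livers had 7244, 14430 and 5710, against 2133, 1801 and 1683 in vehicle livers. The groups overlapped at 16 h and were apart at 8 h, where Saa2 rose (2.18 ± 0.43, adjusted p = 0.00786), and the change with time was -2.69 ± 0.59 (adjusted p = 0.00866). Saa1 changed by -1.82 ± 0.47 (adjusted p = 0.024), Saa3 by -3.10 ± 0.63 (adjusted p = 0.00487) and Orm2, an orosomucoid, by -5.04 ± 1.08 (adjusted p = 0.00685). Saa1 and Saa2, and the orosomucoids, are near-identical copies whose probe sets may share signal. In vehicle 16 h mouse 1 Orm2 had 11120, against 358 and 326 in the other vehicle 16 h mice, and without that mouse 3 acute phase genes passed and Saa1 did not. Saa1 also did not pass without vehicle 8 h mouse 2 or 3, vehicle 16 h mouse 3, HTS-3 8 h mouse 2 or HTS-3 16 h mouse 4.

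**Figure D4:**
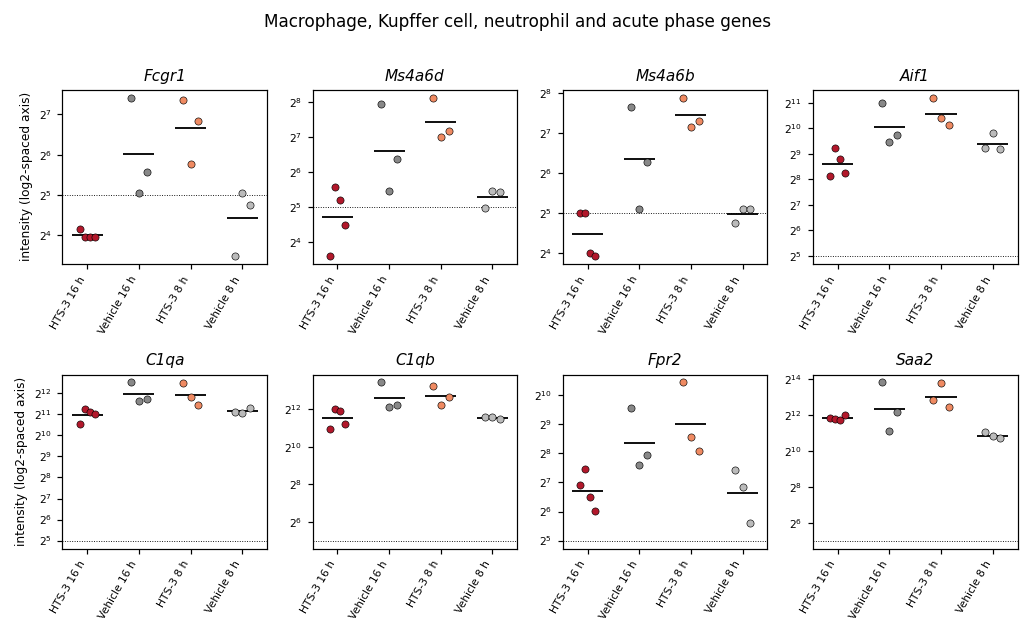
Intensity on a log2-spaced axis in each liver (points) of macrophage, Kupffer cell, neutrophil and acute phase genes, in HTS-3 livers at 16 h, vehicle livers at 16 h, HTS-3 livers at 8 h and vehicle livers at 8 h. Bars are geometric means and the dotted line marks 32. HTS-3 livers lie above vehicle at 8 h, and at 16 h the first vehicle mouse is the highest of its group in all 8 panels.

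A few cell cycle genes fell for the change with time. Pclaf, a PCNA-binding replication factor, had 22.3, 21.0, 21.9 and 21.4 in HTS-3 livers at 16 h, against 60.4, 22.3 and 22.3 in vehicle livers, and 124, 91.3 and 46.2 in HTS-3 livers at 8 h, against 22.1, 24.7 and 22.3 in vehicle livers. Cdk1, the kinase of mitotic entry, had 62.4, 65.0, 69.0 and 46.4 in HTS-3 livers at 16 h, against 111, 59.4 and 62.5 in vehicle livers, and 213, 194 and 144 in HTS-3 livers at 8 h, against 65.0, 78.3 and 63.2 in vehicle livers. Both were apart from vehicle at 8 h and overlapped it at 16 h. The changes with time were -2.33 ± 0.40 for Pclaf (adjusted p = 0.000984) and -1.71 ± 0.39 for Cdk1 (adjusted p = 0.00975). Of 19 measured replication entry genes 1 fell (5.3%), and of 5 measured G2 and mitosis genes 2 fell, Cdk1 and Ube2c, beside 2.76% of all genes tested. Ube2c was dim in 11 of 13 livers and did not pass when any 1 of 9 of the 13 mice was left out, vehicle 16 h mouse 1 among them, or with dim values set to 32. Cdkn1a, the p21 cell cycle inhibitor, had 898, 1770, 1365 and 1498 in HTS-3 livers at 16 h, against 286, 359 and 535 in vehicle livers, and 41.4, 38.2 and 39.0 in HTS-3 livers at 8 h, against 36.4, 21.4 and 21.4 in vehicle livers. It rose at 16 h (adjusted p = 0.018), its change with time was 1.19 ± 0.78 (adjusted p = 0.508), and none of 16 measured p53 target genes passed for that change.

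The effect was higher at 16 h for 43 genes. Lad1, a filament-anchoring protein of basement membranes, had 206, 389, 167 and 1019 in HTS-3 livers at 16 h, against 113, 113 and 56.9 in vehicle livers. In 8 h livers the values were 19.8, 59.2 and 29.2 after HTS-3, against 113, 63.2 and 135 after vehicle. The groups did not overlap at either time (change 3.53 ± 0.78, adjusted p = 0.00882), and HTS-3 8 h mice 1 and 3 were dim. Mtmr7, a myotubularin-related lipid phosphatase, had 132, 287, 110 and 231 in HTS-3 livers at 16 h, against 35.0, 49.8 and 42.7 in vehicle livers, and 79.2, 48.9 and 43.8 in HTS-3 livers at 8 h, against 30.9, 58.9 and 37.6 in vehicle livers. It was apart only at 16 h (change 1.63 ± 0.37, adjusted p = 0.0107), and so was Cdk20, a cyclin-dependent kinase, with 120.5, 105, 77.3 and 146 in HTS-3 livers at 16 h against 31.7 in each vehicle liver (change 1.58 ± 0.30, adjusted p = 0.00234). Those vehicle values of Cdk20 are dim and identical. Lad1, Mtmr7 and Cdk20 did not pass with the compared groups alone or with HTS-3 8 h mouse 3 counted as a 16 h mouse. Mtmr7 and Cdk20 also did not pass with array weights.

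Other rises were Pstpip2, which binds the actin skeleton in myeloid cells (1.75 ± 0.41, adjusted p = 0.0113), Lmna, nuclear lamin A (1.31 ± 0.36, adjusted p = 0.0396), and Cldn1, a tight junction protein (1.41 ± 0.39, adjusted p = 0.037). The 3 measured probe sets of Lmna ranged from 0.20 to 1.31, and Lmna and Cldn1 did not pass with the mean of probe sets. The change with time of Plin2, the lipid droplet coat protein, was 0.88 ± 0.24 (adjusted p = 0.0352), a value that includes its difference from vehicle at 8 h. Plin2 had 22730, 21890, 21210 and 26070 in HTS-3 livers at 16 h, against 13600, 18890 and 17990 in vehicle livers. For Mthfd2, a mitochondrial folate enzyme and target of the integrated stress response, the change with time was 1.07 ± 0.29 (adjusted p = 0.0359). Each of these was the 1 member of its list to pass, of 23 measured for adherens junctions and polarity (Cldn1), 28 for PPAR-alpha targets (Plin2) and 27 for the integrated stress response (Mthfd2), beside 0.471% of all genes tested that rose. Of the 19 named rises 6 held their call whichever single mouse of the 13 was left out, and of the 44 named falls 33 did. Lmna, Cldn1, Plin2 and Mthfd2 were not among the 6, and each failed when vehicle 16 h mouse 1, HTS-3 8 h mouse 3, HTS-3 16 h mouse 1 or HTS-3 16 h mouse 4 was left out, among others.

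**Figure D5:**
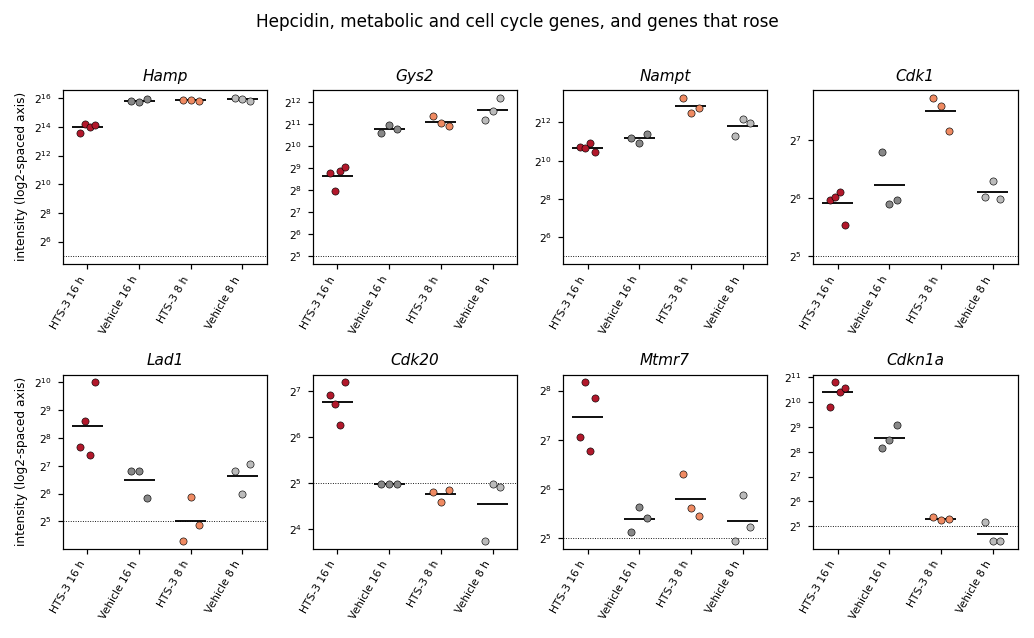
Intensity on a log2-spaced axis in each liver (points) of hepcidin, glycogen synthase, Nampt, Cdk1, 3 genes that rose for the change with time and Cdkn1a, in HTS-3 livers at 16 h, vehicle livers at 16 h, HTS-3 livers at 8 h and vehicle livers at 8 h. Bars are geometric means and the dotted line marks 32. Hamp lies between 12230 and 18920 in HTS-3 livers at 16 h and between 53600 and 66840 in all others.

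Several lists of liver metabolism held no gene that passed for the change with time, and with 3.23% of all genes called, lists of this size may hold none without standing apart. None passed of 20 measured cholesterol synthesis genes, although all 20 had positive values and the median was 0.80, from -0.80 at 8 h and 0.02 at 16 h. The median was 0.44 without HTS-3 8 h mouse 1 and 1.19 without HTS-3 8 h mouse 2. Hmgcs1, an early enzyme of that pathway, had 19590, 16130, 9524 and 26140 in HTS-3 livers at 16 h, against 16170, 12200 and 16620 in vehicle livers, and 2853, 10450 and 5324 in HTS-3 livers at 8 h, against 14530, 9102 and 18030 in vehicle livers. Its change was 1.48 ± 0.62 (adjusted p = 0.229). None passed of 25 measured cytochrome P450 genes, 23 bile acid genes, 26 urea cycle and amino acid genes, 33 ribosomal protein genes, 46 respiratory chain genes or 21 hepatocyte transcription factors, whose medians lay between -0.06 and 0.22. Of 12 measured core clock genes none passed. Of 19 clock output genes 3 fell (15.8%, beside 2.76% of all genes tested), Gys2, Tspan4 and Nampt, the NAD salvage enzyme, which had 1656, 1615, 1916 and 1405 in HTS-3 livers at 16 h, against 2319, 1946 and 2735 in vehicle livers, and 10050, 5826 and 6941 in HTS-3 livers at 8 h, against 2477, 4631 and 4000 in vehicle livers (change -1.55 ± 0.35, adjusted p = 0.00963).

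The change with time was also set directly against that after the other gapmers, a comparison in which the vehicle mice cancel but the HTS-3 mice are shared. It differed from that of NTS-1 for 180 genes (1.97%), of which 145 were lower and 35 higher, and from that of TS-2 for 182 genes (1.99%), of which 166 were lower and 16 higher. Hamp had a geometric mean of 62340 in NTS-1 livers at 16 h and 62020 at 8 h, and of 59100 and 61500 in TS-2 livers, so its change after HTS-3 differed from both (-1.88, adjusted p = 7.65e-09 against NTS-1, and -1.81, adjusted p = 1.78e-08 against TS-2). Dock4 differed from both (-3.62, adjusted p = 1.24e-06, and -3.58, adjusted p = 3.16e-06), as did Rhbdd1 (-3.71, adjusted p = 1.36e-05, and -3.82, adjusted p = 1.12e-05). These values of Dock4 are without a floor, and its HTS-3 livers at 16 h were all dim. With dim values set to 32, its change with time against vehicle was -1.01 (adjusted p = 0.188, limma). Of the 16 measured macrophage genes, none passed against NTS-1 and 1 against TS-2, and of 11 Kupffer genes 3 and none passed, with medians of -1.24 and -0.99. Fcgr1 had -2.22 against NTS-1 (adjusted p = 0.0724) and -2.53 against TS-2 (adjusted p = 0.0333). Of 27 interferon-stimulated genes 1 was higher and 1 lower against NTS-1, and none passed against TS-2. After NTS-1 itself Oas1a had a geometric mean of 1027 at 16 h and 1626 at 8 h, against 154 and 84.7 in vehicle livers.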

How the data were processed

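Liver RNA of 1 mouse per array was hybridised to mouse arrays of 45101 probe sets. The deposited values are intensities that the authors computed with RMA, per the submitters' processing notes, with no version named there. They lie on a linear scale, judged from the values themselves with a lowest of 4.56, and the deposited intensities were converted to log2 here. Of all values of the genes tested, 12.1% equal that of another array for the same gene. Tests used the 34958 probe sets annotated to a single gene, keeping the brightest per gene, and left out 932 with several genes and 9211 without any. limma 3.58.1 in R 4.3.3 fitted 1 mean per group to all 37 single-dose arrays, and 19 arrays of the 2-week study were not used. The residual degrees of freedom were 26, and the number of arrays limits the precision. Genes were adjusted by Benjamini-Hochberg over all 9134 tested. On simulated data of 9134 genes for the change with time, 26% of 2-fold and 79% of 4-fold changes were recovered, with 4 false calls. The simulated noise was normal, with the same spread in all groups for a gene and no outlying mice. The 4 false calls therefore do not measure the error rate of the 295 calls. Replicates were single mice, labelled as biological replicates, and equal numbers did not pair them, since deviations of same-numbered mice correlated between -0.476 and 0.234.

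Named genes were the 15 largest rises and 15 largest falls past the test, up to 4 members past the test from each of the gene lists, and a panel of 42 genes. Each test compared a probe set with itself across mice, never with that of another gene. Genes and lists were chosen with earlier results of these data known. Alternatives were a replicate block, the compared groups alone, array weights, quantile normalisation, the mean of probe sets, other filters and floors, the actin 3'/5' ratio as a covariate, and leaving out or moving mice.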

Additional observations from a re-analysis of the deposited data

Results flagged for a closer look

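The effect of HTS-3 differed between 16 h and 8 h for 295 genes, its change with time differed from that of NTS-1 for 180 genes and from that of TS-2 for 182 genes, each by a test of the difference itself. In HTS-3 livers at 16 h, 1 mouse lay far from the other 3, measured as its gap to the nearest divided by the range of the group, for 4 named genes and 3 list means. The ratio was 0.9598 for Dcp2 (mouse 3 highest), 0.8669 for Ap2a2 (mouse 3 highest), 0.9452 for C1qc (mouse 1 lowest) and 0.8952 for Angel1 (mouse 4 highest). It was 0.8752 for the Kupffer cell list (mouse 1 lowest), 0.8319 for the cytochrome P450 list (mouse 4 highest) and 0.8305 for the respiratory chain list (mouse 4 lowest). These are 7 of 63 genes and 46 lists examined, and chance flags about 1 in 20. Among probe sets without a single gene, which no comparison above used, 33 of 1334 tested passed for the change with time, 26 lower and 7 higher at 16 h.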

How the results depend on the processing

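With a replicate block the change with time was called for 274 genes and that against TS-2 for 118, and no other count moved by over 1.5 times; equal numbers did not pair the mice. The SEs given come from a spread pooled over all single-dose groups, not from the HTS-3 livers alone. Groups differed in spread for some genes. The log2 SD of Ap2a2 was 1.29 in HTS-3 16 h, 0.55 in vehicle 16 h and 0.12 in NTS-1 16 h livers. That of Dock4 was 0.29, 0.26 and 0.11. The compared groups alone take the spread from fewer mice and from those groups only. With them the counts were 9 for the change with time, 291 at 16 h, 13 at 8 h, 24 against NTS-1 and 9 against TS-2. Array weights gave 149, 2347, 20, 52 and 59 in that order, from a fit of the weights that stopped before it converged. The actin 3'/5' covariate gave 595, 2380 at 16 h, 375 against NTS-1 and 280 against TS-2. With HTS-3 8 h mouse 3 counted as a 16 h mouse the counts were 108, 966 at 16 h, 29 against NTS-1 and 25 against TS-2. At 8 h quantile normalisation gave 133, a floor at 32 gave 122, and leaving out HTS-3 8 h mouse 3 and vehicle 16 h mouse 1, chosen after seeing the data, gave 134. Leaving out 1 mouse gave 213 to 514 for the change with time, 1002 to 1848 at 16 h, 39 to 155 at 8 h, 110 to 395 against NTS-1 and 103 to 393 against TS-2. The cause was not tested for these shifts. None of the 63 called named genes reversed its direction under these alternatives, while named genes that were not called, such as Afdn, could change sign. Of the 63 calls 39 held when any 1 of the 13 mice was left out, 33 with array weights, 25 with HTS-3 8 h mouse 3 counted as a 16 h mouse, and 3 of 62 with the compared groups alone. Dim values limit the falls, since their size below an intensity of 32 is not measured.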
